A study of Mus musculus with 4 samples.

Results

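A set of 38 general epithelial genes was followed in whole cochleae of mice at postnatal day 8. The set covers the adhesion molecules, junction proteins, simple keratins, membrane proteases, vesicle carriers, polarity proteins, transcription factors and splicing factors that most epithelia share. Members were taken by symbol from a list. All 38 were found among the 37239 gene identifiers of the files. Of these, 37 had at least 1 CPM (counts scaled to 1000000 counted alignments of the library) in at least 2 of the 4 libraries and were tested, while the transcription factor gene Ovol1 stayed under that level. None of the 37 passed that filter through 1 genotype only.

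Total RNA of dissected cochleae was sequenced from Ikzf2+/+ mice, called wild-type here, and from littermates with the genotype Ikzf2cello/cello, called cello, with 2 libraries per genotype at postnatal day 8. Ikzf2 encodes helios, a zinc finger transcription factor, and cello is a mutant allele of this gene carried in every cell of the animal. The labels name the samples biological duplicates without saying whether a library held 1 cochlea or pooled ones. The p-values set the genotype difference against the spread between libraries of the same genotype, which cannot be read as a spread between single animals. Each library held between 42152616 and 49719984 counted alignments, of which 70.0% to 72.8% lay in genes.

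Epithelial cells line the cochlear duct. Hair cells and supporting cells of the organ of Corti, the cells of Reissner's membrane and the marginal cells of the stria vascularis are all epithelial, whereas fibrocytes, bone, neurons and glia are not. Tight junctions seal this epithelium and keep the potassium-rich endolymph apart from perilymph. Adherens junctions and desmosomes hold the cells together, keratins anchor to the desmosomes, and the splicing factors Esrp1 and Esrp2 keep many transcripts in their epithelial form. Grainyhead-like and Ovo-like transcription factors sustain these genes, while Zeb and Snail proteins repress a number of them. In bulk tissue, a smaller share of epithelial cells and less of these transcripts per cell cannot be told apart.

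The members covered a wide range of levels. Per kilobase of exon, wild-type levels ran from 132 CPM for Epcam and 100.2 CPM for Cdh1 down to 0.305 CPM for Ovol1 and 0.291 CPM for Ehf. Spint2 (51.0), Prom2 (36.6), F11r (35.4), Prss8 (34.9) and Spint1 (30.4) followed at the top of this per-length scale. Their neighbours in that order, such as Prom2, F11r and Prss8, differed in per-length level by less than their spread between libraries. Of 9 markers of squamous skin, 7 were too low to test. Among them Krt5, the keratin gene of basal keratinocytes, had 1 and 13 wild-type reads against 0 and 2 cello reads, and Krt14 had 5 and 10 against 2 and 8. The other 2 squamous markers were present: Krt10, a keratin gene of differentiating keratinocytes, stood at 8.29 and 6.26 against 6.27 and 6.57 CPM and Trp63, the p63 gene of basal cells, at 1.55 and 1.83 against 1.22 and 2.38 CPM, and the groups of both overlapped. All 9 summed to 11.5 and 10.7 CPM against 8.57 and 10.4 CPM. Ciliated and secretory airway genes of the middle ear summed to 6.46, 10.2, 4.76 and 6.66 CPM over 6 genes. The part of squamous and airway epithelium in the members' values was not tested. The cochlear genes Epyc (2486 and 2339 against 2071 and 2172 CPM), of supporting cells, and Kcne1 (361 and 409.6 against 281 and 293 CPM), of marginal cells, were present in every library.

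**Figure D1:**
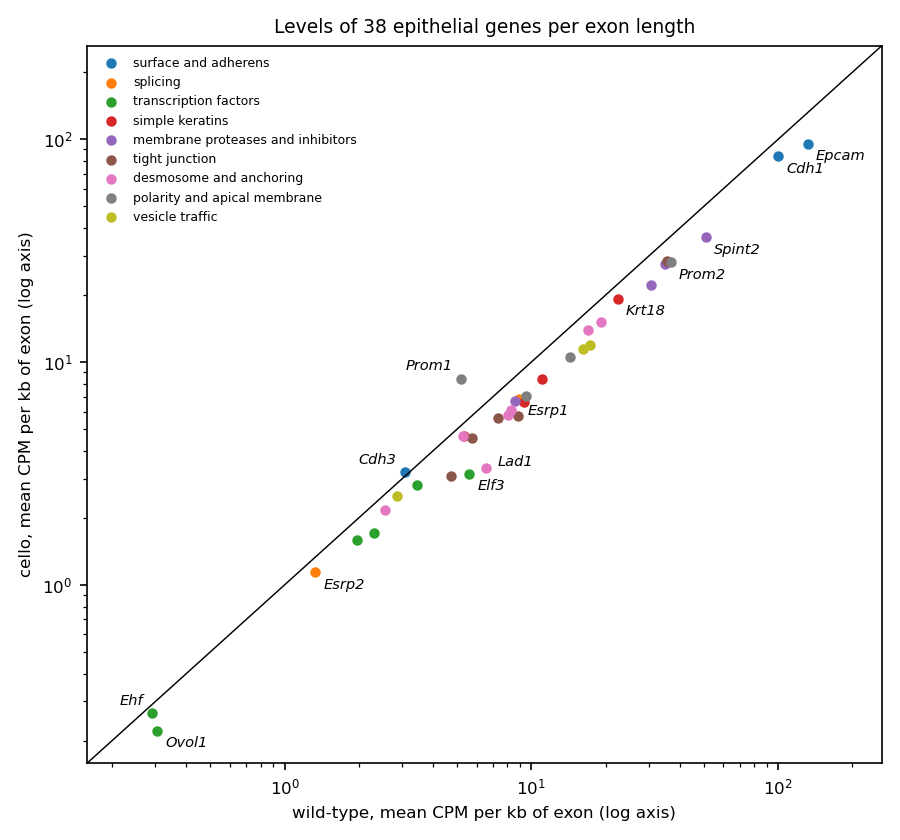
Mean level of each of the 38 epithelial genes in wild-type (x axis) and cello (y axis), in CPM per kilobase of exon on log axes, coloured by role, with the line of equal levels. Most points lie just under the line, while Prom1 lies above it at 5.18 in wild-type and 8.41 in cello.

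Most epithelial transcripts stood lower in the cello cochlea, and the median log2 fold change was below 0 in each of the 9 roles. Epcam, the surface adhesion molecule that marks epithelia, stood at 285 and 293 CPM in the wild-type libraries against 199 and 220.0 CPM in the cello libraries. Summed over all 38 genes, the level was 2365 and 2561 CPM in the wild-type libraries against 1945 and 1926 CPM in the cello libraries, so both cello libraries lay under both wild-type libraries. The median log2 fold change of the 37 tested members was -0.38, cello minus wild-type on the log2(CPM + 0.5) scale, beside -0.03 for all 14721 genes tested. The quartiles of the set were -0.47 and -0.25. Medians of the roles ran from -0.25 for surface and adherens genes to -0.50 for vesicle traffic, and the roles were not tested against each other. Prom1, which encodes the apical membrane protein prominin-1, was the exception with a higher level in both cello libraries, beside 16.9% of all genes tested.

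No member passed the adjusted threshold of 0.05. By limma with Benjamini-Hochberg adjustment 0 of 37 members and 0 of 14721 genes passed (0.0% of all genes), and the members' adjusted p ran from 0.419 to 0.879. By unadjusted p under 0.05 in limma, 23 of 37 members were lower, beside 6.47% of all genes tested, and 1 was higher, beside 4.42% of all genes. For 30 of 37 members both cello libraries lay below both wild-type libraries, beside 28.7% of all genes tested. For 1, Prom1, both lay above both wild-type libraries, beside 16.9% of all genes. For 35 of 37 the log2 fold change was below 0, beside 56.6% of all genes. EdgeR on the recovered reads gave 0 calls among members and over all genes. DESeq2 called 6 members lower, namely Epcam, Spint2, Marveld3, Lad1, Llgl2 and Ap1m2, and 0 higher, beside 0.543% of all genes called lower (80 genes) and 0.781% called higher (115 genes). Without wild-type replicate 2, limma called 90 genes, all higher in cello (0.611% of all genes), of which 0 were members. The members were listed with earlier results of these data known, so their counts are a description and carry no test of the set.

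**Figure D2:**
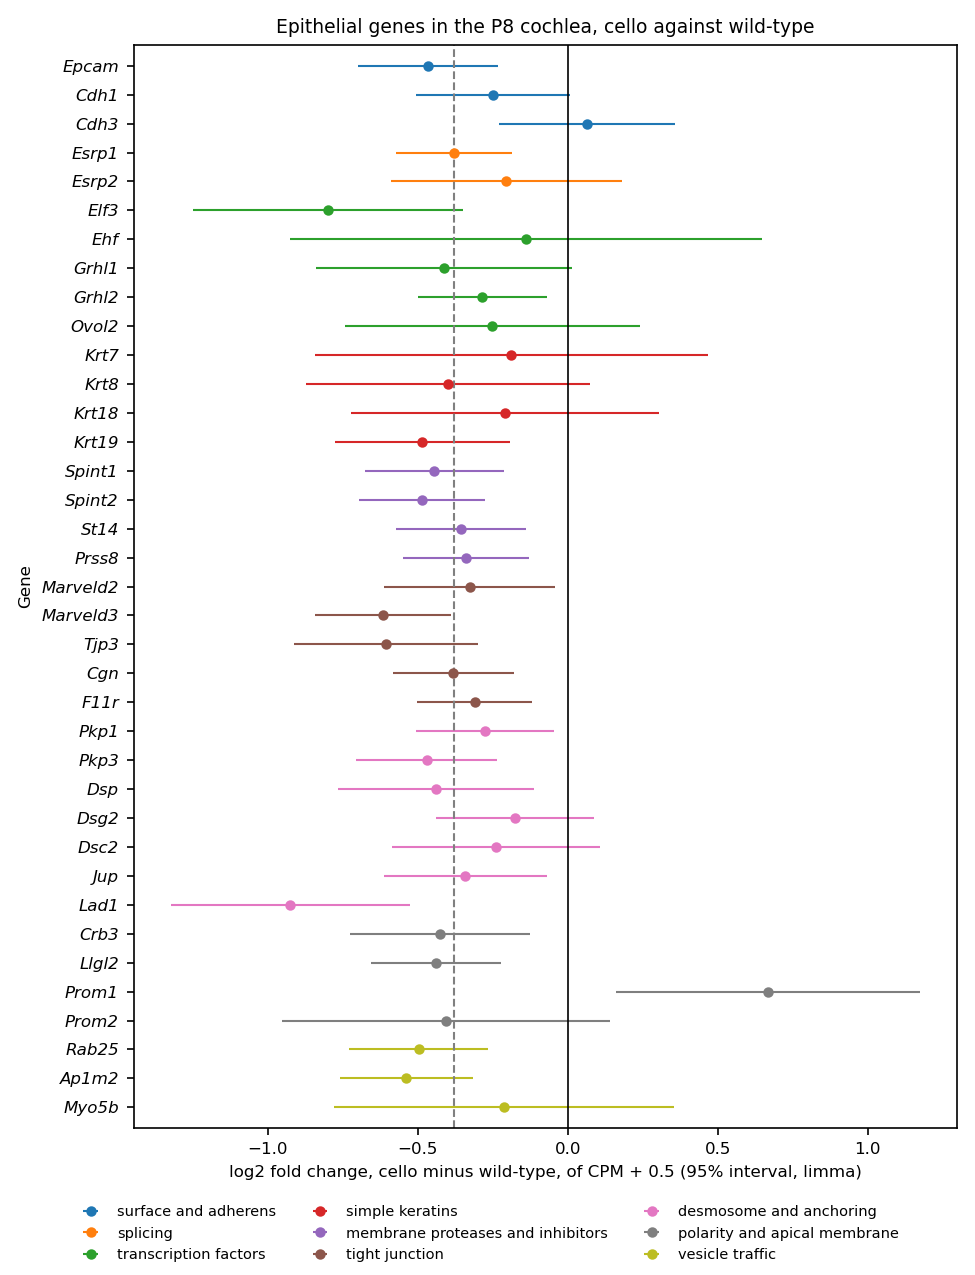
Log2 fold change of CPM + 0.5, cello minus wild-type, for the 37 tested epithelial genes (points, coloured by role) with 95% intervals from limma. The dashed line is their median of -0.38, which lies within the interval of 33 of the 37 genes, and the interval of Prom1 lies wholly above 0.

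With 2 libraries per genotype the intervals of single members were wide, from -1.25 to -0.35 for Elf3 and from -0.92 to 0.65 for Ehf, so they do not show that members changed alike. The 95% interval of 33 of 37 members held -0.38, the median made of these same genes. The others were Lad1 and Marveld3, whose intervals lay below it, and Cdh3 and Prom1, whose intervals lay above it. Intervals of 23 members lay below 0, that of Prom1 lay above 0, and 13 held 0. These intervals are not adjusted for the number of genes.

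Promoter sequence was read for members that were lower together and for those that departed from them. RefSeq promoters of GRCm38.p6, from 250 bases before to 50 bases after a start site, matched 21 of the 38 members with 26 windows, and a gene counts as holding a motif where any of its windows does. Cdh1, Cdh3, Esrp1, Esrp2, Ehf, Grhl2, Ovol1, Krt19, St14, Prss8, Marveld3, Pkp1, Pkp3, Dsg2, Dsc2, Llgl2 and Myo5b had no entry. Capitals mark the E-box CACCTG, the letters Zeb and Snail proteins bind, and AACCNGTT, the letters of grainyhead-like proteins, each searched on both strands (CAGGTG and AACNGGTT on the other). Epcam, Spint2, Ap1m2 and Lad1 are shown as members that DESeq2 called lower, and Lad1 also had the largest difference. Rab25 is shown because it holds both motifs, and Prom1 as the member that was higher.
Epcam (chr17:87635729-87636028, plus strand): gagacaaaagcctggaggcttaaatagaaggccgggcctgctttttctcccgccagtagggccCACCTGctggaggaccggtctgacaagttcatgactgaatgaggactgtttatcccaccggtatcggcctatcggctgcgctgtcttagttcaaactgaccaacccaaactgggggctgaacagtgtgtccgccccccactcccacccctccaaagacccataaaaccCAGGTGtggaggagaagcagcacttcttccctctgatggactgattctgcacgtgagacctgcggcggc
Spint2 (chr7:29281928-29282227, minus strand): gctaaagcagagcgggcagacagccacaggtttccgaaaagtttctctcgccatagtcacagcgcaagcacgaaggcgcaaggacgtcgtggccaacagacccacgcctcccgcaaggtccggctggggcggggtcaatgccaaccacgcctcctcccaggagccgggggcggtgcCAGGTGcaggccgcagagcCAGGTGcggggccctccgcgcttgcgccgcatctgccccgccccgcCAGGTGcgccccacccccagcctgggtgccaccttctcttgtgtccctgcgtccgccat
Ap1m2 (chr9:21312284-21312583, minus strand): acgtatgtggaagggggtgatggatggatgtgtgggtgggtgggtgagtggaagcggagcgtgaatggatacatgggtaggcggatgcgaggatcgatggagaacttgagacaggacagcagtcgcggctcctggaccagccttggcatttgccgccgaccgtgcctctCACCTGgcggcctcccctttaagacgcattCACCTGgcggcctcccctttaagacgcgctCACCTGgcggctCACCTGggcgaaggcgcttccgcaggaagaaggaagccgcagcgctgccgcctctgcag
Rab25 (chr3:88548230-88548529, minus strand): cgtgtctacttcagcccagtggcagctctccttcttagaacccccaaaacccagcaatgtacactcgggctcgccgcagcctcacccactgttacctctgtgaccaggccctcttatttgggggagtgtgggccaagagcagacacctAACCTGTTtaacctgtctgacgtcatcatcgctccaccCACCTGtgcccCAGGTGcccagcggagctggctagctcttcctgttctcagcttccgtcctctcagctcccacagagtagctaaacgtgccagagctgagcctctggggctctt
Lad1 (chr1:135818348-135818647, plus strand): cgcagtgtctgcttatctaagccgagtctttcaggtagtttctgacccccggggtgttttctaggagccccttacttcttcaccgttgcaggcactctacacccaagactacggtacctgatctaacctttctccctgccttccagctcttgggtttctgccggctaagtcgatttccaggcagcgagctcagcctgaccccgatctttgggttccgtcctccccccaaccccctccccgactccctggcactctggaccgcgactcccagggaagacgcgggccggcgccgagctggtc
Prom1 (chr5:44101687-44101986, minus strand): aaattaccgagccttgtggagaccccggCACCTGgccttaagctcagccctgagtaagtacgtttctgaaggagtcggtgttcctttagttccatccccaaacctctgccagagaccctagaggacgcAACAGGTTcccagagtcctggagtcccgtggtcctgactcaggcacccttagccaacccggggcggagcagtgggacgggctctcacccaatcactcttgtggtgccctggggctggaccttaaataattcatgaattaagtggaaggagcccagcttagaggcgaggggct
CACCTG occurred in 14 of the 21 matched genes (66.7%), beside 22.6% of the 27025 genes in the promoter table. The Ap1m2 window held 4 copies, at 81, 51, 21 and 9 bases before the start site, and the Spint2 window 3, at 74, 55 and 9 bases before it. In Epcam the motif began 187 and 19 bases before the start and in Rab25 64 and 53 bases before it. The Lad1 window held neither set of letters, and the Prom1 window shown held CACCTG 222 bases before the start and AACAGGTT 122 bases before it. A second Prom1 window (chr5:44094719-44095018, minus strand), at another start site, held no CACCTG, and AACTGGTT 45 bases before that start. AACCNGTT was found in 3 of 21 genes (14.3%), namely Cgn, Prom1 and Rab25, beside 2.35% of all genes. No match of the first motif overlapped one of the second in these windows. A match is a description of the letters only, and the genes with and without one shared the same direction apart from Prom1.

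Of the 3 surface and adherens junction genes, Epcam (ENSMUSG00000045394, chromosome 17, 87635979 to 87651129, plus strand, GRCm38) differed most, with a log2 fold change of -0.47 (SE 0.09). Its mean in cello was 72.5% of that in wild-type. E-cadherin, the adherens junction protein encoded by Cdh1 (chromosome 8, 106603351 to 106670246, plus strand), had the highest CPM of the set, 437 and 479 CPM in the wild-type libraries against 377 and 393 CPM in the cello libraries. Both cello values of Cdh1 were under both wild-type values, with a log2 fold change of -0.25 (SE 0.10) and a 95% interval from -0.51 to 0.01. P-cadherin, encoded by Cdh3 next to Cdh1 on the same chromosome (chromosome 8, 106510891 to 106557297, plus strand), had levels of 13.1 and 13.8 CPM in the wild-type libraries against 13.4 and 14.7 CPM in the cello libraries. Its groups overlapped, and its log2 fold change of 0.06 had an interval from -0.23 to 0.36, and it was just under 0 without cello replicate 2.

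The splicing regulator Esrp1 (chromosome 4, 11331933 to 11386783, minus strand) stood at 55.6 and 56.9 CPM in the wild-type libraries against 42.4 and 43.9 CPM in the cello libraries. The libraries of each genotype lay close together and the genotypes did not overlap, and its log2 fold change was -0.38 (SE 0.08). Its paralog Esrp2 was lower per length in every library and stood at 6.01 and 5.55 CPM in the wild-type libraries against 5.16 and 4.74 CPM in the cello libraries, with a log2 fold change of -0.21 (SE 0.15). Both cello values were again the lowest, but the interval of -0.59 to 0.18 held 0. An exon of the neighbouring genes Nfatc3 and 1810019D21Rik overlaps Esrp2 on the opposite strand. Alignments set aside as ambiguous made up 3.40% to 3.53% of each library, and how reads on shared exons were assigned is not stated. Esrp proteins act on isoforms, which gene counts do not show. At the level of whole genes, their textbook targets stood at 185 and 179.7 against 203 and 152 CPM for Fgfr2, 121 and 129 against 115 and 77.3 CPM for Cd44, 41.5 and 37.8 against 37.4 and 34.1 CPM for Ctnnd1 and 433 and 394 against 447 and 399 CPM for Enah, wild-type first. The median of these 4 genes was -0.10 on the log2 scale, and 0 of 4 had an unadjusted p under 0.05 in limma. That median was -0.24 without cello replicate 1 and 0.016 without cello replicate 2.

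Among transcription factor genes, Elf3 showed the largest difference. This epithelial ETS factor gene (ENSMUSG00000003051, chromosome 1, 135253575 to 135258568, minus strand) was at 12.6 and 12.2 CPM in the wild-type libraries against 8.06 and 5.92 CPM in the cello libraries, so its mean in cello was 56.4% of the wild-type mean. The log2 fold change was -0.80 (SE 0.18), with no overlap between genotypes, and the 2 cello libraries differed from each other more than the wild-type ones did. Grhl2, the grainyhead-like factor gene with the highest CPM of this role, stood at 29.3 and 29.8 CPM in the wild-type libraries against 24.3 and 24.0 CPM in the cello libraries, with a log2 fold change of -0.29 (SE 0.08). Its paralog Grhl1 had a log2 fold change of -0.41 (SE 0.17), which was -0.22 without cello replicate 2 and -0.61 without cello replicate 1. Ovol2, an Ovo-like zinc finger gene, stood at 4.71 and 3.58 CPM in the wild-type libraries against 3.44 and 3.31 CPM in the cello libraries, a smaller gap between genotype means than between the 2 wild-type libraries. Ehf, a further ETS factor gene, stood at 1.77 and 1.47 CPM in the wild-type libraries against 0.989 and 1.98 CPM in the cello libraries. Its groups overlapped, and without cello replicate 1 its log2 fold change turned from -0.14 to 0.23. Ovol1, which was not tested, had 42 and 54 wild-type reads against 28 and 42 cello reads, or 0.845 and 1.28 against 0.660 and 0.885 CPM, and its groups overlapped.

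**Figure D3:**
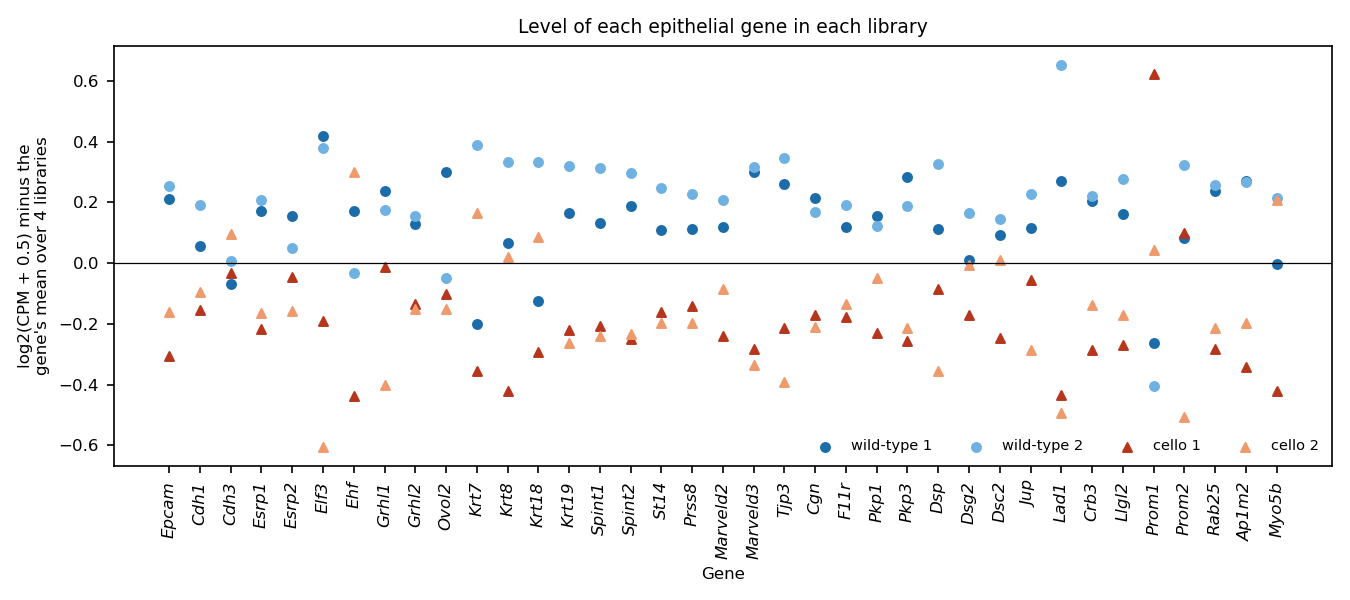
Level of each of the 37 tested epithelial genes in each library, as log2(CPM + 0.5) minus the gene's mean over the 4 libraries. Circles are wild-type and triangles cello. The triangles lie below both circles for 30 genes, among them Epcam, Esrp1, Marveld3 and Lad1, beside 28.7% of all genes tested. Prom1 has both triangles on top, beside 16.9% of all genes tested.

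Simple keratins, the intermediate filaments of single-layered epithelia, had a median of -0.30, which ran from -0.51 without wild-type replicate 1 to -0.099 without cello replicate 1. Krt18 (chromosome 15, 102028180 to 102032027, plus strand), which had the highest per-length level of the 4, stood at 27.0 and 37.3 CPM in the wild-type libraries against 24.0 and 31.3 CPM in the cello libraries. Krt7 stood at 29.9 and 45.4 CPM in the wild-type libraries against 26.9 and 38.8 CPM in the cello libraries. For both genes the libraries of 1 genotype differed by more than the genotype means, the groups overlapped, and the log2 fold changes of -0.21 and -0.19 turned to 0.020 and 0.11 without wild-type replicate 2. Krt8, the type II partner of Krt18, stood at 19.5 and 23.6 CPM in the wild-type libraries against 13.8 and 18.9 CPM in the cello libraries without overlap, with an interval from -0.87 to 0.07. Krt19 had the smallest p of the keratins and close replicates at 16.4 and 18.3 CPM in the wild-type libraries against 12.4 and 12.1 CPM in the cello libraries, and its log2 fold change was -0.48 (SE 0.11). Krt7 and Krt8 each share exon sequence with an opposite-strand gene.

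The 4 genes of membrane proteases and their inhibitors were lower in both cello libraries, with a median of -0.40. Spint2 (ENSMUSG00000074227, chromosome 7, 29256323 to 29281912, minus strand), a Kunitz-type inhibitor of epithelial serine proteases, stood at 223 and 241 CPM in the wild-type libraries against 165 and 167 CPM in the cello libraries. The 2 cello libraries differed by less than the 2 wild-type ones, and the log2 fold change was -0.49 (SE 0.08). Spint1, the related inhibitor of matriptase, stood at 79.0 and 89.5 CPM in the wild-type libraries against 62.3 and 61.0 CPM in the cello libraries, a log2 fold change of -0.44 (SE 0.09). The protease genes were lower as well: St14, which encodes matriptase, stood at 62.1 and 68.5 against 51.5 and 50.2 CPM (-0.36 (SE 0.08)), and Prss8, which encodes prostasin, at 62.0 and 67.3 against 51.9 and 49.9 CPM (-0.34 (SE 0.08)). All 4 genes were lower without overlap between genotypes, beside 28.7% of all genes tested. Their unadjusted p was under 0.05 in limma, beside 6.47% of all genes lower at that level. Exons of Prss8 overlap those of Kat8 on the opposite strand.

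All 5 tight junction genes were lower in both cello libraries, beside 28.7% of all genes tested, with a median of -0.38. Marveld3 (ENSMUSG00000001672, chromosome 8, 109947914 to 109962203, minus strand), which encodes a tight junction membrane protein of the occludin family, had the smallest unadjusted p of the 37 members in limma. It stood at 28.8 and 29.1 CPM in the wild-type libraries against 19.1 and 18.4 CPM in the cello libraries, or 29.0 ± 0.220 CPM over wild-type libraries against 18.7 ± 0.501 CPM over cello libraries (SD, n = 2). Replicates lay within 1 CPM of each other in both genotypes, and the log2 fold change was -0.62 (SE 0.09), with an interval from -0.84 to -0.39 and an adjusted p of 0.419 by limma. Marveld2, which encodes tricellulin, the protein of tricellular contacts whose loss causes deafness, stood at 18.8 and 20.0 CPM in the wild-type libraries against 14.5 and 16.2 CPM in the cello libraries, with a log2 fold change of -0.33 (SE 0.11). F11r, which encodes the junctional adhesion molecule JAM-A and had the highest CPM of this role, stood at 91.8 and 96.7 CPM in the wild-type libraries against 74.7 and 77.1 CPM in the cello libraries (-0.31 (SE 0.08)). The scaffold genes Tjp3 and Cgn, of ZO-3 and cingulin, stood at 17.1 and 18.1 against 12.1 and 10.7 CPM (-0.61 (SE 0.12)) and 45.0 and 43.6 against 34.3 and 33.4 CPM (-0.38 (SE 0.08)).

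Desmosome and anchoring genes were lower without overlap between genotypes in 7 of 7 cases, beside 28.7% of all genes tested. Their median was -0.34. Lad1 (ENSMUSG00000041782, chromosome 1, 135818598 to 135833342, plus strand), which encodes the anchoring protein ladinin-1, had the largest negative log2 fold change of all 37 members. It stood at 19.2 and 25.2 CPM in the wild-type libraries against 11.6 and 11.1 CPM in the cello libraries, so its mean in cello was 51.2% of the wild-type mean. The log2 fold change was -0.92 (SE 0.16), and it ranged from -1.12 to -0.73 over the alternatives. Jup, which encodes plakoglobin and had the highest CPM of this role, stood at 119 and 129 CPM in the wild-type libraries against 106 and 89.8 CPM in the cello libraries, a log2 fold change of -0.34 (SE 0.11). The plakophilin genes Pkp1 and Pkp3 stood at 86.0 and 84.2 against 65.9 and 74.7 CPM (-0.28) and 30.1 and 28.1 against 20.5 and 21.2 CPM (-0.47). Dsp, the gene of the keratin linker desmoplakin, stood at 74.3 and 86.1 CPM in the wild-type libraries against 64.7 and 53.5 CPM in the cello libraries, a log2 fold change of -0.44 (SE 0.13). The desmosomal cadherin genes had the smallest differences of the role. Dsg2 stood at 41.3 and 46.0 against 36.4 and 40.8 CPM and Dsc2 at 13.2 and 13.7 against 10.3 and 12.5 CPM, and their intervals, from -0.44 to 0.09 and from -0.59 to 0.11, held 0.

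The polarity and apical membrane genes held both directions. Prom1 (ENSMUSG00000029086, chromosome 5, 43993620 to 44102032, minus strand) stood at 39.0 and 35.3 CPM in the wild-type libraries against 72.4 and 48.4 CPM in the cello libraries. Both cello libraries lay above both wild-type libraries, beside 16.9% of all genes tested, and the cello libraries were far apart. The log2 fold change was 0.67 (SE 0.20), with an unadjusted p of 0.019 and an adjusted p of 0.429 in limma. It ran from 0.38 without cello replicate 1 to 0.95 without cello replicate 2. Cello replicate 1, in which Prom1 was highest, was also the library with the most bone transcript, and the part of that in the Prom1 value was not tested. Prom2, which encodes the related prominin-2 of plasma membrane protrusions, stood at 174 and 206 CPM in the wild-type libraries against 176 and 116 CPM in the cello libraries. Its groups overlapped because cello replicate 1 matched wild-type replicate 1, and its interval ran from -0.95 to 0.14. Of the polarity genes proper, Llgl2, a lethal giant larvae homolog of the basolateral side, stood at 66.9 and 72.5 CPM in the wild-type libraries against 49.5 and 53.0 CPM in the cello libraries (-0.44 (SE 0.09)). Crb3, the epithelial crumbs gene of the apical side, stood at 14.8 and 15.0 CPM in the wild-type libraries against 10.4 and 11.6 CPM in the cello libraries (-0.43 (SE 0.12)), and its exons overlap Dennd1c on the opposite strand.

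Of the vesicle carriers, Ap1m2 (ENSMUSG00000003309, chromosome 9, 21294275 to 21312337, minus strand) had the closest wild-type replicates. The gene encodes the epithelial subunit of the AP-1B adaptor, which sorts proteins to the basolateral membrane. It stood at 54.6 and 54.4 CPM in the wild-type libraries against 35.5 and 39.3 CPM in the cello libraries, and its log2 fold change was -0.54 (SE 0.09). Rab25, a small GTPase gene of apical recycling, stood at 26.9 and 27.3 CPM in the wild-type libraries against 18.6 and 19.5 CPM in the cello libraries (-0.50 (SE 0.09)). For Myo5b, the motor of the same recycling endosomes, cello replicate 2 matched wild-type replicate 2 at 25.8 and 30.1 CPM in the wild-type libraries against 19.2 and 29.9 CPM in the cello libraries. Its log2 fold change of -0.21 turned to 0.10 without cello replicate 1.

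Further epithelial genes, taken from a second list of 37, were also mostly lower, with a median nearer to 0. Of 32 tested, 31 had a log2 fold change below 0, beside 56.6% of all genes, with a median of -0.25. At an unadjusted p under 0.05 in limma 15 were lower, beside 6.47% of all genes, and 0 higher, beside 4.42%. For 24 both cello libraries lay below both wild-type libraries, beside 28.7% of all genes. The claudin gene Cldn9 stood at 181 and 188 CPM in the wild-type libraries against 139 and 132 CPM in the cello libraries (-0.45 (SE 0.08)). Mal2, a gene of apical transcytosis, stood at 45.1 and 44.0 against 31.7 and 34.2 CPM (-0.43 (SE 0.08)) and Ildr1, which encodes a protein of tricellular junctions, at 51.3 and 55.1 against 42.0 and 37.8 CPM (-0.41 (SE 0.09)). By limma, 0 of the 32 passed the adjusted threshold.

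The genes that oppose the epithelial state in other settings had no common direction. Over 11 mesenchymal genes, among them Vim, Twist1 and Fn1, the median log2 fold change was -0.10, with 7 below 0 and 4 above, and it was -0.01 without cello replicate 1 and -0.03 without cello replicate 2. Zeb2, the repressor that binds the E-box, stood at 51.8 and 65.1 CPM in the wild-type libraries against 75.8 and 79.5 CPM in the cello libraries, with a log2 fold change of 0.41 (SE 0.13) and an unadjusted p of 0.020 (limma, adjusted p = 0.429). It is also expressed by Schwann cells. Their markers summed to 1111 and 2686 CPM in the wild-type libraries against 3926 and 4769 CPM in the cello libraries. The part of Schwann cell content in the Zeb2 value was not tested. Zeb1 stood at 37.2 and 37.0 against 43.7 and 39.8 CPM and Snai2 at 7.30 and 7.12 against 6.20 and 5.22 CPM, and neither had an unadjusted p under 0.05. Cdh2 (0.32) and Cdh11 (0.21), cadherin genes of neurons and mesenchyme, likewise did not pass.

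**Figure D4:**
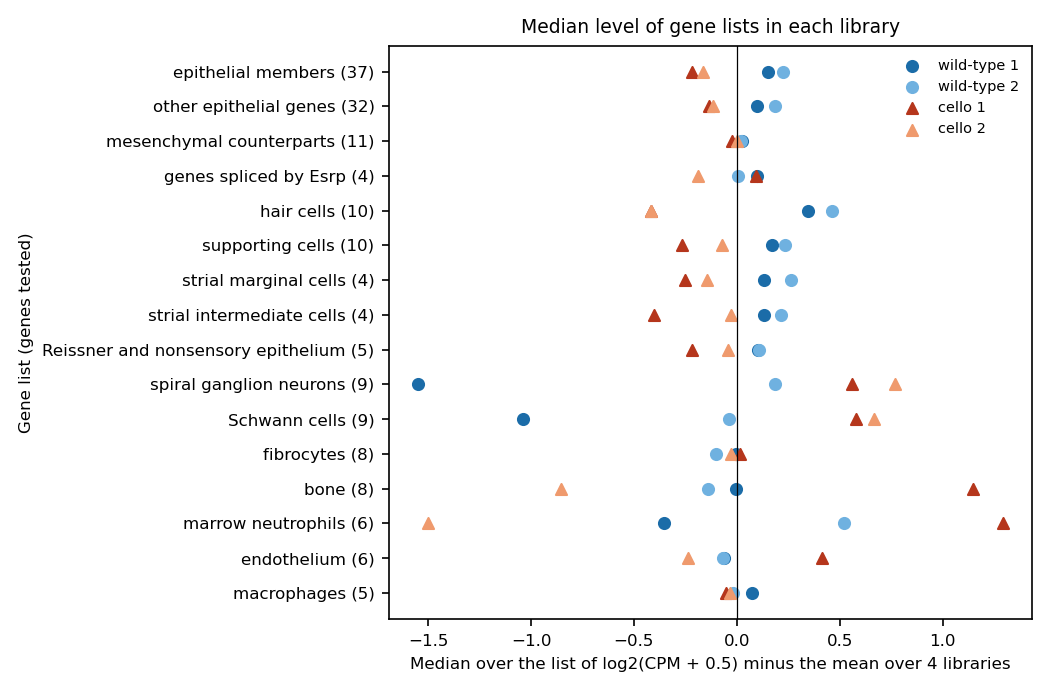
Median level of each gene list in each library, as the median of log2(CPM + 0.5) minus each gene's mean over the 4 libraries, with the number of genes tested in brackets. The epithelial members have values of 0.15 and 0.23 for wild-type against -0.22 and -0.16 for cello, whereas neuronal and Schwann cell lists spread widely within wild-type and bone and marrow lists within cello.

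Lists of markers for the cell types in the cochlear duct had medians below 0, with tested genes in both directions in 3 of the 5 lists. Marginal cell genes of the stria, which are epithelial, had a median of -0.40 over 4 genes. All 4 were lower without overlap, for example Esrrb (-0.38) and Kcne1 (-0.42), beside 28.7% of all genes tested. Supporting cell genes had a median of -0.40 over 10 genes, of which 8 lay below 0 and 4 overlapped between genotypes. Without overlap 5 were lower and 1 higher, beside 28.7% and 16.9% of all genes tested. Otoa (248 and 242 against 164 and 161 CPM) and Otog (217 and 239.7 against 155 and 144 CPM) had the smallest p. Above 0 were Prox1 (9.65 and 15.1 against 17.7 and 25.3 CPM, 0.79 (SE 0.27)), without overlap and with an unadjusted p of 0.031 (limma, adjusted p = 0.441), and Ceacam16 (6.40 and 5.93 against 15.3 and 3.27 CPM), whose groups overlapped. The median of the list was -0.23 without cello replicate 1. Hair cell genes had a lower median, -0.80 over 10 genes, of which 8 lay below 0, 2 lay above and 3 overlapped between genotypes. The other 7 were lower without overlap, beside 28.7% of all genes tested. The list ran from Ocm at -2.21 to Myo7a at 0.04, with Slc26a5, the prestin gene, at -1.18, Strc at -1.23 and Pou4f3 at -0.86. Pigmented intermediate cells of the stria are no epithelium, yet their 4 tested genes had a median of -0.35, with Tyr at -0.56 and Dct at -0.40. That median was -0.61 without cello replicate 2 and -0.24 without cello replicate 1. Tyrp1, also of this list, stood at 0.442 and 0.522 against 0.330 and 3.37 CPM, so its groups overlapped. It was not tested, as only cello replicate 2 reached 1 CPM. Genes of Reissner's membrane and other nonsensory epithelium had a median of -0.21, with Oc90 at -0.63, Lmx1a at -0.21 and Slc26a4, the pendrin gene, above 0 at 0.12. Of these 5 genes 2 overlapped between genotypes and 3 were lower without overlap, beside 28.7% of all genes tested. Only 1, Oc90, had an unadjusted p under 0.05 in limma, beside 6.47% of all genes lower at that level. Whether the medians of these lists differ from that of the members was not tested.

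Other tissues of the dissection varied between libraries as well. Schwann cell markers, 9 of 9 detected, summed to 1111 and 2686 CPM in the wild-type libraries against 3926 and 4769 CPM in the cello libraries, and spiral ganglion neuron markers, 9 of 9 detected, to 200.0 and 593 CPM in the wild-type libraries against 743 and 884 CPM in the cello libraries. The neuronal list had a median log2 fold change of 1.44, which became 0.54 when wild-type replicate 1 was left out and 2.28 when wild-type replicate 2 was. For the Schwann cell list the corresponding medians were 1.16, 0.65 and 1.63. Bone markers summed to 1051 and 1082 CPM in the wild-type libraries against 2518 and 583 CPM in the cello libraries, and marrow neutrophil markers to 19.4 and 40.4 CPM in the wild-type libraries against 82.6 and 7.84 CPM in the cello libraries. The epithelial sum differed by 8.26% between the wild-type libraries and by 0.969% between the cello libraries. Sums of some roles were closer, such as tight junction genes at 201.5 and 207.5 CPM in wild-type and 154.8 and 155.8 CPM in cello. Sums of other roles differed more. From cello replicate 1 to cello replicate 2, polarity and apical membrane genes summed to 308 and 229 CPM, simple keratins to 77.1 and 101 CPM, surface and adherens genes to 589.9 and 628 CPM and vesicle traffic genes to 73.4 and 88.8 CPM, so these differences ran in opposite directions. Fibrocyte genes (0.06), endothelial genes (0.14) and macrophage genes (-0.07) had medians nearer to 0 over all 4 libraries. Without cello replicate 1 these medians were -0.06, -0.13 and -0.06, and without cello replicate 2 they were 0.04, 0.48 and -0.06; for macrophage genes the median was -0.11 without wild-type replicate 2. The part that nerve, bone and marrow content had in the epithelial values was not tested. The members' median was -0.42 without wild-type replicate 1, the library lowest in nerve transcripts, and -0.29 without wild-type replicate 2.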

How the data were processed

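The authors deposited CPM per gene, 1 file per library, made from reads aligned to GRCm38 by TopHat, per the submitters' processing notes. For the counter, strand setting and annotation no statement is given in the sources used here. The CPM sum to 1000000 only with 5 entries that name no gene (27.2% to 30.0% of alignments), which were kept out of tests. Whole reads were recovered for 100% of values (tolerance 0.001 of a read). The limit that a count of 0 allows, 3 reads, is 0.0603 to 0.0712 CPM and covers counting error only. Symbols, positions and union exon lengths came from GENCODE M21 (GRCm38), which matched 36588 of 37239 identifiers. Exons of 14 members overlap another gene on the opposite strand. These are Esrp1, Esrp2, Elf3, Grhl2, Ovol1, Ovol2, Krt7, Krt8, Prss8, Tjp3, Dsp, Dsg2, Crb3 and Prom1.

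Log2(CPM + 0.5) was fitted by genotype, with the variance following a trend on level, in limma 3.58.1 under R 4.3.3, for the 14721 genes that reached 1 CPM in 2 or more libraries. P-values were two-sided and adjusted over these genes (Benjamini-Hochberg, threshold 0.05). The scale understates changes of low genes. With 2 libraries per genotype an exact permutation test gives no p under 0.333 and was not used. EdgeR 4.0.16 and DESeq2 1.42.0, which left 1142 adjusted p undefined, were run on recovered reads as alternatives, beside other pseudocounts, filters, scalings and variance models, a replicate block and leaving out each library. The fits were also run on simulated counts, drawn for each gene on its own. Such counts carry no shift in tissue content shared by genes, so no result here rests on them. Tables were made with Python 3.11.15 and pandas 2.3.3.

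All members are named, with values in every library for the member of each role with the highest CPM, the one with the smallest p, any above 0, and others chosen after their values were seen. Up to 3 genes of each other list were named by smallest p. Outside that rule Epyc, Zeb1, Snai2, Enah, Ocm, Myo7a, Krt5, Krt14, Prox1, Ceacam16, Slc26a4 and Tyrp1 were added, as were Vim, Twist1, Fn1, Lmod1 and Tnni1. Members and lists were chosen with earlier results of these data known.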

Additional observations from a re-analysis of the deposited data

How the results depend on the processing

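The members' median log2 fold change stayed below 0 under all 18 alternatives, from -0.42 to -0.29, and the lowest and highest values came from leaving out wild-type replicate 1 (-0.42) and wild-type replicate 2 (-0.29). Rescaling by TMM, which put the median of all genes at 0.01, gave -0.34. Of the alternatives, 5 change only the genes tested or the variance and leave each log2 fold change as it is by construction. Under the other 13, 475 of 481 log2 fold changes of single members kept their side of 0. The 6 on the other side came from leaving out 1 library, which gave ranges of -0.48 to 0.11 for Krt7 (also 0.07 without cello replicate 1), -0.44 to 0.020 for Krt18, -0.51 to 0.23 for Ehf, -0.53 to 0.10 for Myo5b and -0.00083 to 0.13 for Cdh3. Leaving out 1 library moved 13 members by over 1.5 times, these 5 and Krt8 (-0.62 to -0.18), Dsg2 (-0.26 to -0.09), Dsc2 (-0.37 to -0.11), Jup (-0.46 to -0.23), Grhl1 (-0.61 to -0.22), Ovol2 (-0.43 to -0.08), Prom2 (-0.71 to -0.11) and Prom1 (0.38 to 0.95). The number of genes called was 0 in the other settings, 195 in DESeq2, of which 6 were members, and 0 to 90 when 1 library was left out, the 90 without wild-type replicate 2. Members called numbered 0 in each of those left-out settings. The cause of these shifts was not tested. With the replicate number as a block, 0 genes and 0 members were called; in this balanced design the block cannot change a log2 fold change, so the median is -0.38 by construction. Equal numbers share no stated litter or batch, and the deviations of equally numbered libraries correlated at 0.13 over 14721 genes. The lowest adjusted p of a member in limma was 0.419. Marveld3, whose replicates lay within 1 CPM of each other, had that value in limma and an adjusted p of 0.0063 in DESeq2.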

Other observations

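The 2 members with the lowest log2 fold changes, Lad1 (-0.92) and Elf3 (-0.80), lie 560 kb apart on chromosome 1, the chromosome that also carries Ikzf2. Their distance from Ikzf2 was not measured, and a link to that gene was not tested. Of the 38 members, 4 lie on chromosome 1, the others being Pkp1 (-0.28) and F11r (-0.31). Pkp1 lies from 135871395 to 135919207, just past the end of Lad1 at 135833342. Between Elf3 and Lad1, 10 genes were tested, of which 3 had a log2 fold change below 0 and 7 above, with a median of 0.09 and a range from -0.74 for Lmod1 to 0.99 for Tnni1. This stretch was chosen after the values were seen.

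The order of the 38 members by level per exon length was nearly the same in both genotypes. In 4 genes the rank moved by more than 3 places. Prom1 went from place 28 in wild-type to place 14 in cello, while Elf3 went from 25 to 29, Marveld3 from 18 to 22 and Lad1 from 23 to 27. The rise of Prom1 past Elf3, Marveld3 and Lad1 by itself lowered the place of each.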
